A study of Mus musculus with 18 samples.

Results

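The genes of the cytosolic ribosomal proteins were examined in RNA-seq libraries of mouse monocytes and of the cells that arise from them with GM-CSF. The members were chosen by symbol, as every gene whose symbol starts with *Rpl* or *Rps* and a digit, together with *Rplp0*, *Rplp1*, *Rplp2* and *Rpsa*, and without the S6 kinase genes (*Rps6k*) and the genes named as pseudogenes (*-ps*). This gave 86 of the 20298 genes in the table. Of these, 43 encode core proteins of the large subunit, 30 encode core proteins of the small subunit, and 13 are paralogs and other genes that the symbols take in, such as *Rpl3l*, *Rps27l* and *Rps19bp1*. The core genes *Rpl10*, *Rpl36a*, *Rpl39* and *Rps4x* were not analysed here. *Fau*, which encodes a core protein under another name, and *Rack1* were measured and are given beside the members.

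The 18 libraries form 6 groups of 3. WT and DKI monocytes of C57BL/6 mice (C57BL/6J in the methods) were unstimulated (day 0) or were cultured for 3 or 6 days with 20 ng/mL GM-CSF, a cytokine that signals through STAT5, to give monocyte-derived cells (MDCs). DKI mice carry N-domain substitutions knocked into both *Stat5a* and *Stat5b*, in all cells, so that STAT5 dimers form and tetramers do not. The age of the mice is not given in the sources used here. The methods name bone marrow and negative selection as the source of the cells, whereas the labels name liver and Ly6C+ CCR2+ monocytes. All 6 monocyte markers examined (*Ly6c2*, *Ccr2*, *Csf1r*, *Itgam*, *Cd14*, *Fcgr1*) had a mean above 2 RPKM in every group, and none of 6 hepatocyte markers (*Alb*, *Apoa1* and others) did in any group. Levels are given in RPKM, read counts divided by gene length and by the mapped reads of the library.

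The ribosome is built from ribosomal RNA and about 1 copy of each ribosomal protein, and growing cells spend much of their transcription on both. Transcripts of ribosomal protein genes typically begin with an oligopyrimidine tract, a cytosine followed by a run of C and T, through which mTOR and LARP1 control their translation and stability. A few core genes have paralogs with a narrow expression, among them *Rpl3l*, which is known from heart and skeletal muscle. Mammalian genomes also hold many processed copies of ribosomal protein mRNAs, most of them pseudogenes.

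Several facts of the libraries touch all results below. The depth, estimated from the smallest nonzero values of 1111 short receptor genes, was roughly 29250000 to 42550000 reads per library. In the library names, replicate 1 of both genotypes on days 3 and 6 carries an earlier year than the rest, so the value without it is given where it differs. The summed RPKM of 10 granulocyte markers ranged from 24.1 to 5378 between libraries, and 1 WT library of day 3 (replicate 2, 4626) and 1 DKI library of day 6 (replicate 1, 3314) stood far above the others of their groups. RPKM is a share of the library, so that fewer transcripts of these genes and more transcripts of other genes cannot be told apart. In bulk RNA, fewer cells of a type and less RNA per cell cannot be told apart either. *Stat5a* and *Stat5b* were transcribed in every DKI library (at least 9.22 and 12.6 RPKM), and since the mutations are substitutions these levels are no check of the labels.

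The members covered nearly the whole range of expression. *Rplp1*, a protein of the acidic stalk that recruits elongation factors, had the highest mean over the 18 libraries (949 RPKM), and *Rpl8* (886 RPKM), *Rplp2* (679 RPKM) and *Rps15* (675 RPKM) were among the 5 highest. The lowest were *Rpl10l* (0.00254 RPKM), a testis paralog listed at 0 in all 12 MDC libraries, *Rpl13* (0.557 RPKM), *Rpl23a* (0.889 RPKM), *Rpl39l* (1.07 RPKM) and *Rps13* (1.76 RPKM). *Rpl13*, *Rpl23a* and *Rps13* are core genes, and over the 73 core genes the highest mean was 1705 times the lowest, while a ribosome holds about 1 copy of each protein. In all, 23 core genes had a mean under 10 RPKM, 20 lay from 10 to 100 RPKM and 30 were at 100 RPKM or above.

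These levels ran with how much of each transcript is also found elsewhere in the genome's transcripts. For every member, the share of the 50-base stretches of its transcript that occur in no other annotated gene was counted. Of the stretches of *Rpl8* 92.1% were unique, whereas 80.3% of the *Rpl13* transcript was shared with 1 pseudogene (*Gm12918*) and 98.6% of *Rps27* with its retrotransposed copy *Rps27rt*. The 20 core genes with under 25% unique stretches had a median level of 6.60 RPKM (0.557 to 153). The 45 genes with 25 to 75% had a median of 85.9 RPKM (2.71 to 949), and the 8 genes with more had a median of 302 RPKM (43.8 to 886). Across the 73 genes Spearman's rho between the unique share and the mean RPKM was 0.55, as a description over genes that share the same libraries. How the authors treated reads that match several genes is not given in the sources used here, and the part of this in the levels was not tested. The spans of *Rps25*, *Rps27a*, *Rpl5*, *Rpl35a* and *Rps4l*, among others, overlap another protein-coding gene (*Ccdc84*, *Clhc1*, *Dipk1a*, *Iqcg* and *Tmtc1*), and with the strand of counting not stated, reads of such partners cannot be told apart. Levels are therefore not compared between single members below, and each gene is compared with itself across libraries.

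**Figure D1:**
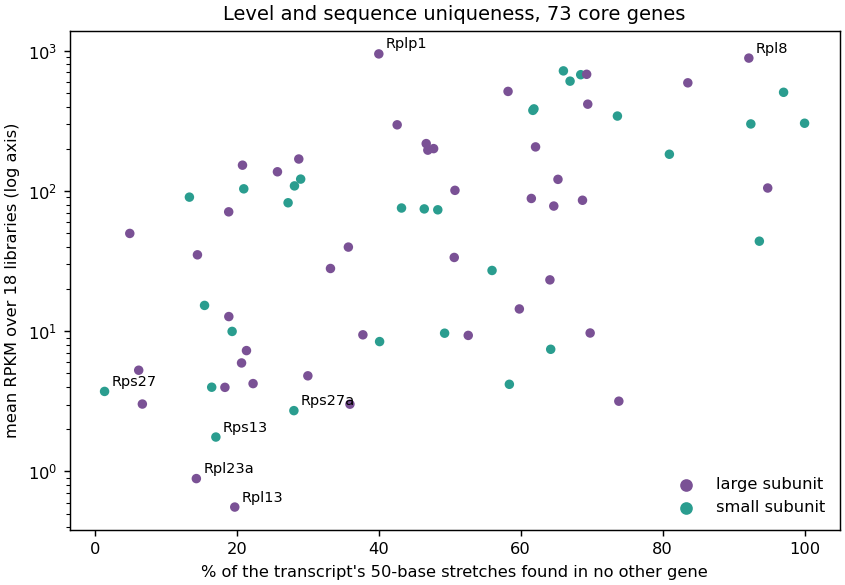
Mean RPKM over 18 libraries (log axis) against the percentage of a transcript's 50-base stretches found in no other gene, for 73 core ribosomal protein genes, 1 point per gene. The genes under 10 RPKM had a median of 22.3% unique stretches, and the 9 genes at 500 RPKM or above had a median of 68.5%.

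As a whole, the ribosomal protein genes took a smaller share of the transcriptome in DKI than in WT MDCs, while in monocytes the genotypes overlapped. On day 0 the 86 members held 3.26%, 3.36% and 3.59% of the summed RPKM in WT and 3.36%, 3.17% and 3.41% in DKI monocytes (replicates 1, 2 and 3). The groups overlapped, and the ratio of the DKI to the WT mean was 0.974. On day 3 the share was 3.38%, 2.78% and 3.04% in WT and 1.35%, 2.12% and 2.70% in DKI MDCs. Every DKI library lay below every WT library, though DKI replicate 3 only just, and the means (3.07% ± 0.30 and 2.06% ± 0.67, SD, n = 3) had a ratio of 0.67. On day 6 it was 3.67%, 3.00% and 4.48% in WT and 1.72%, 2.19% and 2.72% in DKI MDCs, with means of 3.72% ± 0.74 and 2.21% ± 0.50 (SD, n = 3) and a ratio of 0.594. Again no DKI library reached a WT library. In each genotype the spread between libraries was wider after GM-CSF than before.

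The size of the difference varied with the replicate number. In same-numbered libraries of day 3 the DKI share was 0.401 of the WT share in replicate 1, 0.76 in replicate 2 and 0.886 in replicate 3. On day 6 the ratios were 0.468, 0.729 and 0.608. Without replicate 1 of both genotypes, the ratio of the means was 0.826 on day 3 and 0.656 on day 6. Other markers moved with genotype as well. On day 3 the granulocyte markers summed to 196, 4626 and 293 RPKM in WT and 1944, 2914 and 582 RPKM in DKI, and all 10 had a log2 fold change above 0 (median 1.67), with none called. On day 6 they summed to 621, 603 and 24.1 RPKM in WT and 3314, 258 and 45.9 RPKM in DKI, again with all 10 above 0 (median 0.72) and none called, and the sums overlapped on both days. Monocyte markers summed to 822 to 1275 RPKM in WT and 1578 to 2880 RPKM in DKI MDCs on day 3. On day 6 they summed to 642 to 1250 and 1432 to 1980 RPKM, so their sum was higher in every DKI library. Of the 6 markers 1 had a log2 fold change below 0 on each day (medians 0.89 and 0.84), and none was called. The progenitor markers *Cd34*, *Kit* and *Flt3* summed to 17.8 to 21.2 RPKM in WT and 3.28 to 13.3 RPKM in DKI on day 3. On day 6 they summed to 23.7 to 28.3 and 4.12 to 8.44 RPKM, so their sum was lower in every DKI library. The sums were led by *Cd34*, which was called lower on day 6 (−1.83), against 4.82% of all genes. With 1 library left out *Cd34* was called in 1 of 6 fits. The 5 cycling genes were all above 0 on day 3 (median 0.22) and all below 0 on day 6 (median −0.55), none was called, and their sums overlapped on both days (41.4 to 102 RPKM in WT and 50.5 to 138 RPKM in DKI on day 3, 48.3 to 93.2 and 10.2 to 120 RPKM on day 6). The part of these markers in the share was not tested. The 20 other genes with the highest mean over the 18 libraries were then left out of every library. The members held 3.30% to 4.13% in WT and 1.58% to 3.28% in DKI on day 3. On day 6 they held 3.61% to 5.42% and 2.06% to 3.33%, and the genotypes still did not overlap.

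The sums of RPKM over each subunit were also set against each other within a library. The summed RPKM of the 30 core small-subunit genes was 0.781 to 0.855 of that of the 43 core large-subunit genes in WT monocytes and 0.798 to 0.81 in DKI monocytes. In MDCs the ratio was 0.805 to 0.809 in WT and 0.721 to 0.776 in DKI on day 3, and 0.825 to 0.865 in WT and 0.715 to 0.758 in DKI on day 6. The genotypes overlapped on day 0 and did not on days 3 and 6. Replicate 1, in which the share of all members was lowest, had the highest DKI ratio on both days. These sums are led by the genes with the highest RPKM, and gene by gene the subunits were close, with median log2 fold changes (DKI against WT) of −0.62 for the large and −0.64 for the small subunit on day 3 and of −0.75 and −0.78 on day 6. The difference between the subunits was not tested.

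**Figure D2:**
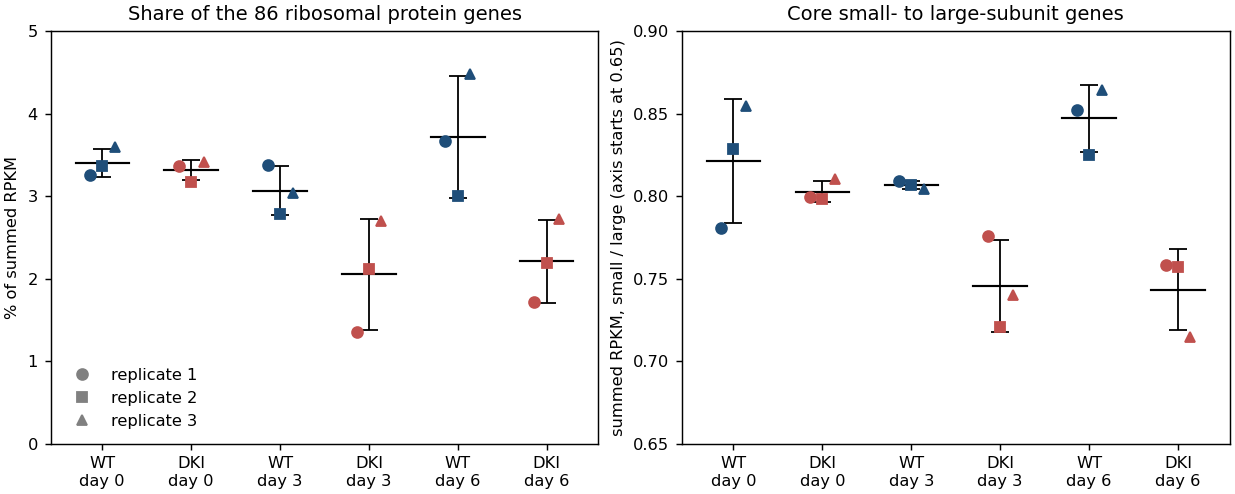
Left, percentage of each library's summed RPKM held by the 86 ribosomal protein genes; right, summed RPKM of the core small-subunit genes divided by that of the core large-subunit genes (axis from 0.65). Points are libraries (circle, square and triangle for replicates 1, 2 and 3; WT blue, DKI red), horizontal lines are means and bars are SD (n = 3). The DKI libraries of days 3 and 6 sit below all WT libraries of their day in both panels.

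Fold changes of single genes were fitted with limma on log2(RPKM + 1), on which changes of low genes are understated. A gene was fitted where its mean was above 2 RPKM in at least 1 group, and was called at an adjusted p under 0.05 (Benjamini-Hochberg over all genes fitted) and a fold change above 1.5. In unstimulated monocytes no ribosomal protein gene differed by genotype by this rule. Of the 86 members 81 were fitted and 0 were called, as were 0% of all 9179 genes, and at an unadjusted p under 0.05 there was 1 member and 44 genes in all. The median log2 fold change (DKI against WT) was −0.01 over the members and 0.00 over all genes. The DKI libraries of day 0 lay below all WT libraries in 5 members (*Rpl5*, *Rpl12*, *Rpl35a*, *Rps15a* and *Rps28*) and in 0.316% of all genes. Of these, *Rpl12*, a protein at the base of the stalk, had the lowest fold change of the members (−0.46 ± 0.21, SE), with 37.3, 35.6 and 42.1 RPKM in WT and 34.4, 30.5 and 20.0 RPKM in DKI monocytes. Only the third DKI library stood clearly apart.

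On day 3 of GM-CSF the ribosomal protein genes had lower values in DKI MDCs, but few of them passed the test. All 80 members fitted had a log2 fold change below 0, which held for 61.4% of the genes fitted. Their values ranged from −1.91 to −0.12 (−1.33 to −0.20 in core genes). Their median was −0.63, with 41 large-subunit and 29 small-subunit core genes among them, and the median of all genes was −0.11. Without DKI replicate 1, 6 of the 80 were above 0 (*Rpl10a*, *Rps25*, *Rps27a*, *Rplp1*, *Rpl36* and *Rpl7l1*), and 53.4% of all genes were below 0. Each DKI library lay below each WT library in 43 members, as it did in 22.9% of all genes. The test called 2 members lower, *Rpl3l* and *Rpsa*, against 4.21% of all genes, so the share of members called was no higher than the background. *Rpl3l* was fitted only through WT MDCs (means of 4.82 RPKM on day 3 and 5.18 RPKM on day 6), the groups in which it is high, since its means in the other groups are under the limit of 2 RPKM. With no such limit it was still called on day 3 (adjusted p = 0.0436) and *Rpsa* was not. At an unadjusted p under 0.05 there were 34 members and 2583 genes in all.

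*Rpl3l* was the lowest. It was at 3.09, 4.62 and 6.75 RPKM in WT and 0.223, 0.462 and 0.886 RPKM in DKI MDCs, a log2 fold change of −1.91 ± 0.30 (SE, adjusted p = 0.0207). The groups were far apart, and unstimulated monocytes of both genotypes had 0.145 to 0.298 RPKM in 6 libraries. *Rpsa*, a small-subunit protein that is also known as a laminin receptor, was at 43.2, 36.4 and 29.96 RPKM in WT and 8.98, 14.9 and 19.1 RPKM in DKI MDCs (−1.33 ± 0.28, SE, adjusted p = 0.0435). The highest DKI library was well below the lowest WT library. *Rps26*, which shapes the mRNA exit channel, followed with 632, 388 and 425 RPKM against 176, 220 and 325 RPKM, but did not pass the test (−1.02 ± 0.31, SE, adjusted p = 0.106).

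Members of different roles had values below 0 on day 3, and those given next did not pass the test. For the stalk, the log2 fold change was −0.68 ± 0.31 (SE) in *Rplp0*, −0.50 ± 0.41 in *Rplp2* and −0.94 ± 0.47 in *Rpl12*. *Rplp1* was the exception, at −0.20 ± 0.31, with 978, 862 and 999 RPKM in WT and 569, 866 and 1135 RPKM in DKI. Its groups overlapped, and without DKI replicate 1 its value was 0.07. *Rpl5* (−0.68) and *Rpl11* (−0.85), which form the 5S ribonucleoprotein and can bind MDM2, were below 0 as well. *Rps6*, the S6 kinase substrate, was at −0.78, *Rpl3*, near the peptidyl transferase centre, at −0.80, and *Rpl13a* at −0.64. *Rps18* had −0.84, *Rps19*, the gene most often mutated in Diamond-Blackfan anaemia, had −0.74, and *Rpl41*, the smallest of the proteins, had −0.71. The members nearest to 0 were *Rps4l* (−0.12), *Rpl7l1* (−0.13), *Rps19bp1* (−0.19), *Rplp1*, *Rps27a* (−0.21) and *Rpl10a* (−0.23).

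Single libraries decided which members were called on day 3. Both calls stood without DKI replicate 1 or 3, neither stood without DKI replicate 2 or without WT replicate 2 or 3 (0 called), and 1 stood without WT replicate 1. In these 6 fits 1.1% to 4.01% of all genes were called lower. With the replicate number as a block, which the labels' numbers and the joint deviation of same-numbered libraries allow, 1 member was called (*Rpl3l*, adjusted p = 0.0216), against 2.96% of all genes called lower. The median log2 fold change was −0.41 without DKI replicate 1, and −0.31 without replicate 1 of both genotypes, where 1 member and 2.12% of all genes were called lower.

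**Figure D3:**
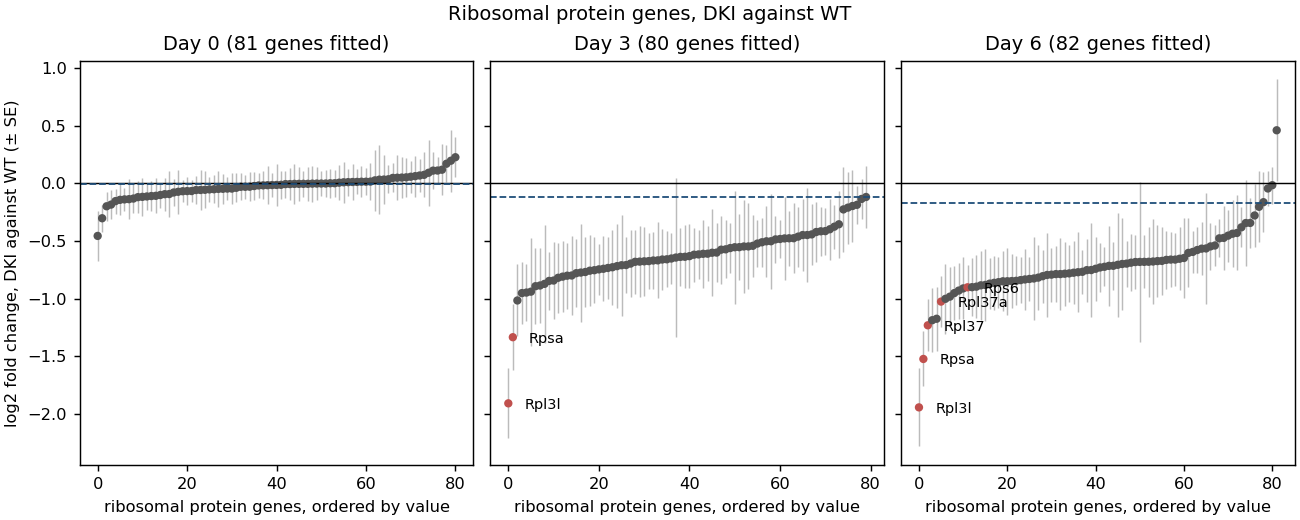
Log2 fold changes (DKI against WT, on log2(RPKM + 1)) of the ribosomal protein genes fitted on each day, ordered by value, with SE (n = 3 libraries per group). Red points are genes called lower and are named, the dashed blue line is the median of all genes fitted. The values centre on 0 on day 0 and on −0.63 and −0.73 on days 3 and 6.

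By day 6 the pattern was the same in direction, and 5 members were called lower. Of 82 members fitted, 81 had a log2 fold change below 0 (66.5% of all genes did), with a median of −0.73 against −0.17 over all genes. The DKI libraries lay below all WT libraries in 55 members and in 26.6% of all genes. These 55 included 36 of the 43 members of day 3 (83.7% of the day 3 and 65.5% of the day 6 members). Over all genes the days shared 68.0% of the genes of day 3 and 58.1% of those of day 6, and nothing is read from the members' overlap. The 5 members called (*Rpl3l*, *Rpsa*, *Rpl37*, *Rpl37a*, *Rps6*) compare with 4.82% of all genes called lower, again a share near the background. *Rpl3l*, *Rpl9*, *Rps13* and *Rps27a* passed the limit on mean RPKM only through WT and *Rpl39l* only through DKI, which favours their sign, and the 77 members above it in both genotypes were all below 0 (67.3% of all such genes). With no limit no member was called (*Rpl3l* had adjusted p = 0.0583), against 0.797% of all genes. At an unadjusted p under 0.05 there were 54 members and 2778 genes in all.

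*Rpl3l* was at 3.74, 3.47 and 8.32 RPKM in WT and 0.230, 0.755 and 0.616 RPKM in DKI MDCs of day 6 (−1.94 ± 0.34, SE, adjusted p = 0.0288). *Rpsa* was at 45.9, 32.1 and 52.4 RPKM in WT and 11.7, 13.6 and 17.8 RPKM in DKI (−1.52 ± 0.24, adjusted p = 0.0239). In both genes the groups were again far apart. *Rpl37*, a zinc-binding protein of the large subunit, had 152, 104.8 and 173 RPKM against 66.5, 53.6 and 57.9 RPKM (−1.23 ± 0.23, adjusted p = 0.0317). *Rpl37a* had 130, 100.4 and 156 RPKM against 61.6, 71.7 and 53.5 RPKM (−1.02 ± 0.22, adjusted p = 0.0427). *Rps6* had 21.1, 15.4 and 21.7 RPKM against 8.09, 11.3 and 10.3 RPKM (−0.90 ± 0.19, adjusted p = 0.0433). In each of the 5 genes the highest DKI library stayed below the lowest WT library. Part of the *Rpl37* transcript (31.3%) is also in *Rpl37rt*, its retrotransposed copy, which is itself a member and had a log2 fold change of −1.001.

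**Figure D4:**
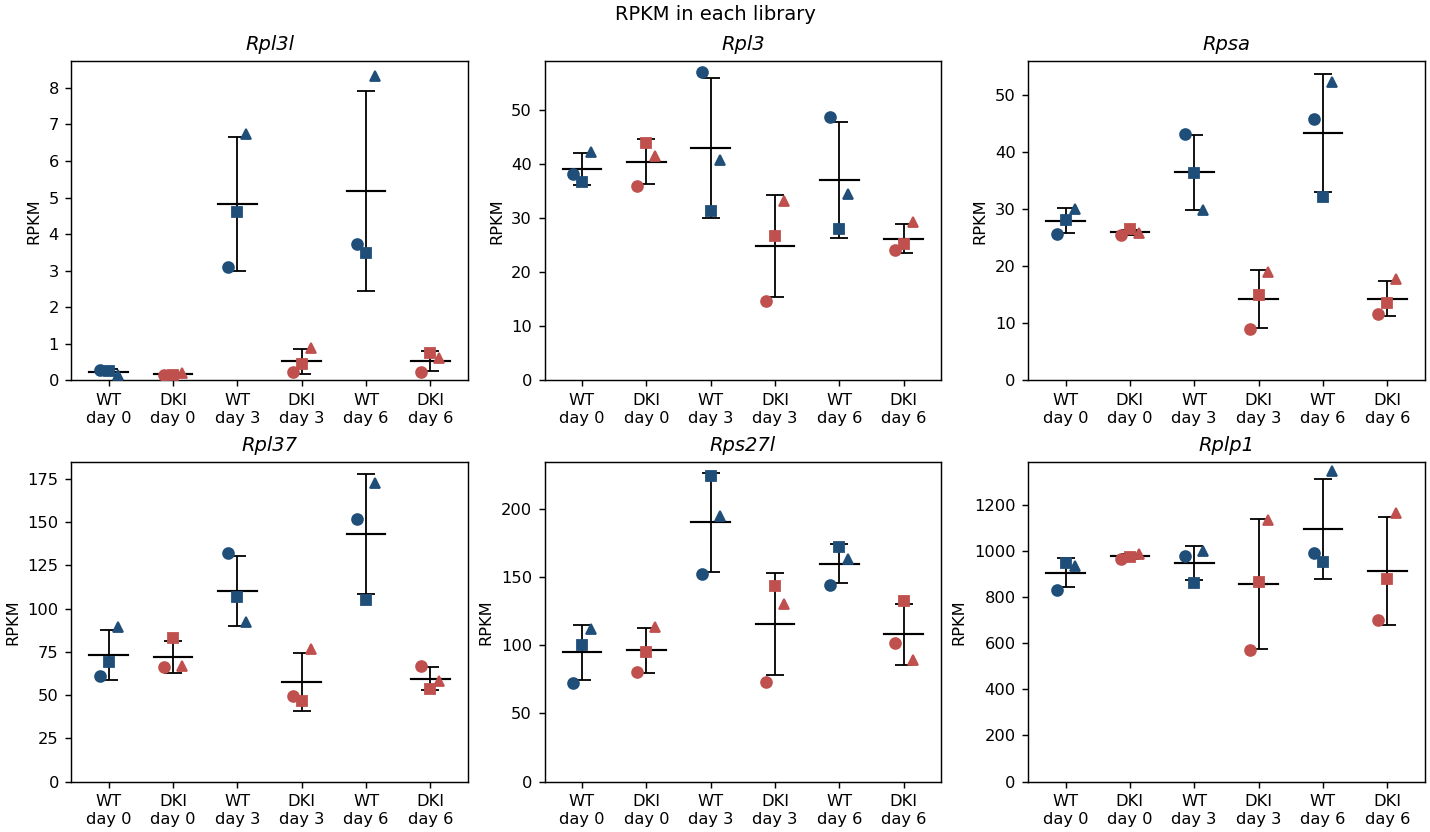
RPKM of 6 members in each of the 18 libraries (circle, square and triangle for replicates 1, 2 and 3; WT blue, DKI red), with group means and SD (n = 3). *Rpl3l* is at 3.09 to 8.32 RPKM in the WT and at most 0.886 RPKM in the DKI libraries of days 3 and 6, *Rpsa* and *Rpl37* separate by genotype on days 3 and 6, and *Rplp1* overlaps on these days.

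The other members of day 6 did not pass the test. *Rps26* (−1.19 ± 0.28, adjusted p = 0.0516) had a larger fold than *Rps6*. The stalk gave −0.98 for *Rplp0*, −0.70 for *Rplp2*, −0.67 for *Rpl12* and −0.28 for *Rplp1*. *Rpl11* had −0.93, *Rpl5* −0.60, *Rps19* −0.84, *Rps18* −0.83, *Rpl13a* −0.83, *Rpl41* −0.77, *Rpl8* −0.66 and *Rpl3* −0.45. The 1 member above 0 was *Rpl39l*, a paralog of *Rpl39* with 1.07, 1.24 and 1.35 RPKM in WT and 4.26, 0.573 and 2.44 RPKM in DKI (0.46 ± 0.44). Its DKI libraries lay on both sides of WT.

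The count of day 6 depended on which libraries were used. It was 18 without WT replicate 2, the WT library with the smallest share of ribosomal protein transcripts (3.6% of all genes were called lower in that fit), and 4 without DKI replicate 2 (6.66% of all genes). It was 0 without any 1 of WT replicate 1, WT replicate 3, DKI replicate 1 or DKI replicate 3, where 0.638% to 1.35% of all genes were called lower. With the replicate block 4 members were called (*Rpsa*, *Rpl3l*, *Rpl37* and *Rps26*, the last with adjusted p = 0.0491), so that *Rps6* and *Rpl37a* were not, against 4.41% of all genes called lower in that fit. Scaling the libraries otherwise also changed it. The median of all genes was shifted by −0.17 on day 6, and with every library centred on its median the members' median was −0.59 and 2 were called, against 2.9% of all genes called lower. Without replicate 1 of both genotypes no member was called, against 0.122% of all genes called lower. In the fit of all 18 libraries, which pools the spread over the groups, 22 members were called lower on day 3 and 43 on day 6, against 8.16% and 10.7% of all genes.

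Read along time, the values of the ribosomal protein genes centred near 0 change in WT and below 0 in DKI. From day 0 to day 3 in WT, the median log2 fold change of 82 members was 0.01 (−0.05 over all genes), and 42 members were above and 40 below 0. Higher on day 3 were 5 members, against 20.3% of all genes, and lower was 1, against 22.8%. The shares of members called (6.1% and 1.22%) lay below these, in a comparison in which 4283 of 9938 genes were called. The gene with the largest rise was *Rpl3l* (2.19 ± 0.27, SE, adjusted p = 0.00102), from 0.298, 0.252 and 0.154 RPKM on day 0. *Rps27l*, a paralog of *Rps27* known as a p53 target, rose from 72.2, 99.97 and 111.7 RPKM to 152, 224 and 195 RPKM (1.004 ± 0.22, adjusted p = 0.00997). *Rpl15* (0.60 ± 0.18, adjusted p = 0.0284), *Rpl41* (0.59, adjusted p = 0.0373) and *Rpl37* (0.59, adjusted p = 0.0499) rose as well, though with each of 6 libraries left out in turn they were called in only 2, 1 and 1 fits. Without WT replicate 1 of day 3, or without WT replicate 2 of day 0, 3 members were called in place of 6 (37.5% and 36.5% of all genes were called in these fits), while *Rpl3l* and *Rps27l* were called without any 1 library.

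In DKI every member called in the same interval fell. Of 81 members 79 had a log2 fold change below 0 (58.3% of all genes did), and the median was −0.65 against −0.16 over all genes. The DKI libraries of day 3 lay below all those of day 0 in 54 members and in 34.6% of all genes. The test called 12 members lower and none higher, which at 14.8% of the members is below the 21.1% of all genes called lower. Of the 12, 8 were core small-subunit genes, 2 core large-subunit genes and 2 paralogs. Of the 8, *Rps13* was fitted only through day 0, in which it is high (means of 2.56 and 1.07 RPKM), and it was called in 0 of 6 fits with 1 library left out. The largest falls among those called were in *Rpl4* (−0.98 ± 0.31, adjusted p = 0.0482), *Rps29* (−0.97 ± 0.24, adjusted p = 0.0238) and *Rps16* (−0.96 ± 0.21, adjusted p = 0.0154). An extension of RPL4 lines the exit tunnel, and RPS16 and RPS29 sit in the head of the small subunit. *Rpsa* fell from 25.6, 26.5 and 25.8 RPKM to 8.98, 14.9 and 19.1 RPKM (−0.87 ± 0.27, adjusted p = 0.0430). *Rps27l* was at 80.5, 95.0 and 113.2 RPKM on day 0 and 72.8, 143 and 130 RPKM on day 3 (0.21 ± 0.30), with overlap.

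This count, too, rested on single libraries. It was 21 without DKI replicate 3 of day 3 (15.9% of all genes were called lower in that fit), and 12 without replicate 1 (19.3%). It was 2 without replicate 2 of day 3 or replicate 3 of day 0, and 1 without replicate 1 or 2 of day 0 (12.4% to 15.9%). In the fit of all 18 libraries it was 38 (25% of all genes), and with no limit on mean RPKM it was 6 (11.3%). The median was −0.41 without replicate 1 of day 3.

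Markers of other cells and of the cell cycle moved over the same interval. In DKI 4 of 5 cycling genes (median log2 fold change −2.02), 3 of 10 granulocyte genes (median −0.90), 1 of 2 erythroid genes and the 1 T and NK cell gene fitted were called lower. In WT 5 of 5 cycling genes (median −2.11), 4 of 9 granulocyte genes (median −2.65), 2 of 2 erythroid genes, and the 1 gene of T and NK cells and 1 of B cells fitted were called lower. Of the 6 monocyte markers, 3 were called higher and 2 lower in DKI, and 2 higher and 2 lower in WT. Among these the mean of *Ly6c2*, the marker of classical monocytes, was 1365 RPKM on day 0 and 299 RPKM on day 3 in DKI, and 1446 RPKM and 22.7 RPKM in WT. Their part in the values of the ribosomal protein genes was not tested.

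Between days 3 and 6 there was no call in either genotype. In WT 0 of 81 members and 0% of all genes were called, with 1 member and 722 genes at an unadjusted p under 0.05. In DKI 0 of 80 members and 0% of all genes were called, with 0 members and 93 genes at that p. The median log2 fold change of the members was 0.20 in WT (69 of 81 above 0) and 0.10 in DKI (64 of 80 above 0), and that of all genes was −0.03 and −0.07. In WT the value was 0.06 without replicate 3 of day 6, in DKI it was −0.14 without replicate 1 of day 3.

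Whether the response to GM-CSF differed by genotype was tested as an interaction. For day 3 against day 0 all 82 members fitted had a value below 0 and a median of −0.56 (−0.11 over all genes), and 1 member was called, *Rpl3l* (−1.83 ± 0.35, SE, adjusted p = 0.0212), against 1.7% of all genes called lower. It passed the limit on mean RPKM only through WT MDCs here too, and with no limit it was still called in both interactions (adjusted p = 0.0198 and 0.0305). *Rpsa* did not pass for day 3 (−1.23, adjusted p = 0.0727). For day 6 against day 0 the median was −0.71 (−0.17 over all genes), and 2 of 83 members were called, *Rpl3l* (−1.87 ± 0.39, adjusted p = 0.0302) and *Rpsa* (−1.42 ± 0.27, adjusted p = 0.0225), against 1.9% of all genes. These comparisons share their libraries with those above, so they are no further evidence of the direction. Over the 12 libraries left out in turn, *Rpl3l* was called in 7 fits for day 3 and in 4 fits for day 6, and *Rpsa* was called in 5 fits for day 6. Without WT replicate 2 of day 6, 27 members were called lower, against 3.5% of all genes.

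Most core genes moved together across the 18 libraries. The deviation of each gene from its own mean was set against the median deviation of the core genes, and Pearson's r had a median of 0.867 over the 73 genes, with 54 genes above 0.8. This is a description over libraries that share groups. The lowest was *Rpl15* (0.489) and the highest *Rps3* (0.988). In the library that stood lowest, DKI replicate 1 of day 3, the median core gene was 0.92 below its mean on the log2 scale and 0% of the core genes were above it. The median was −0.40 and −0.08 in DKI replicates 2 and 3 of that day, and −0.58, −0.36 and −0.17 in the DKI libraries of day 6. The WT libraries of day 6 were at 0.44, 0.09 and 0.63. After the median of the library was taken off, the SD of a core gene over the libraries fell to a median of 0.23, from 0.43. That library median comes from the same 73 genes, which favours such a fall, and no other genes were set beside them.

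**Figure D5:**
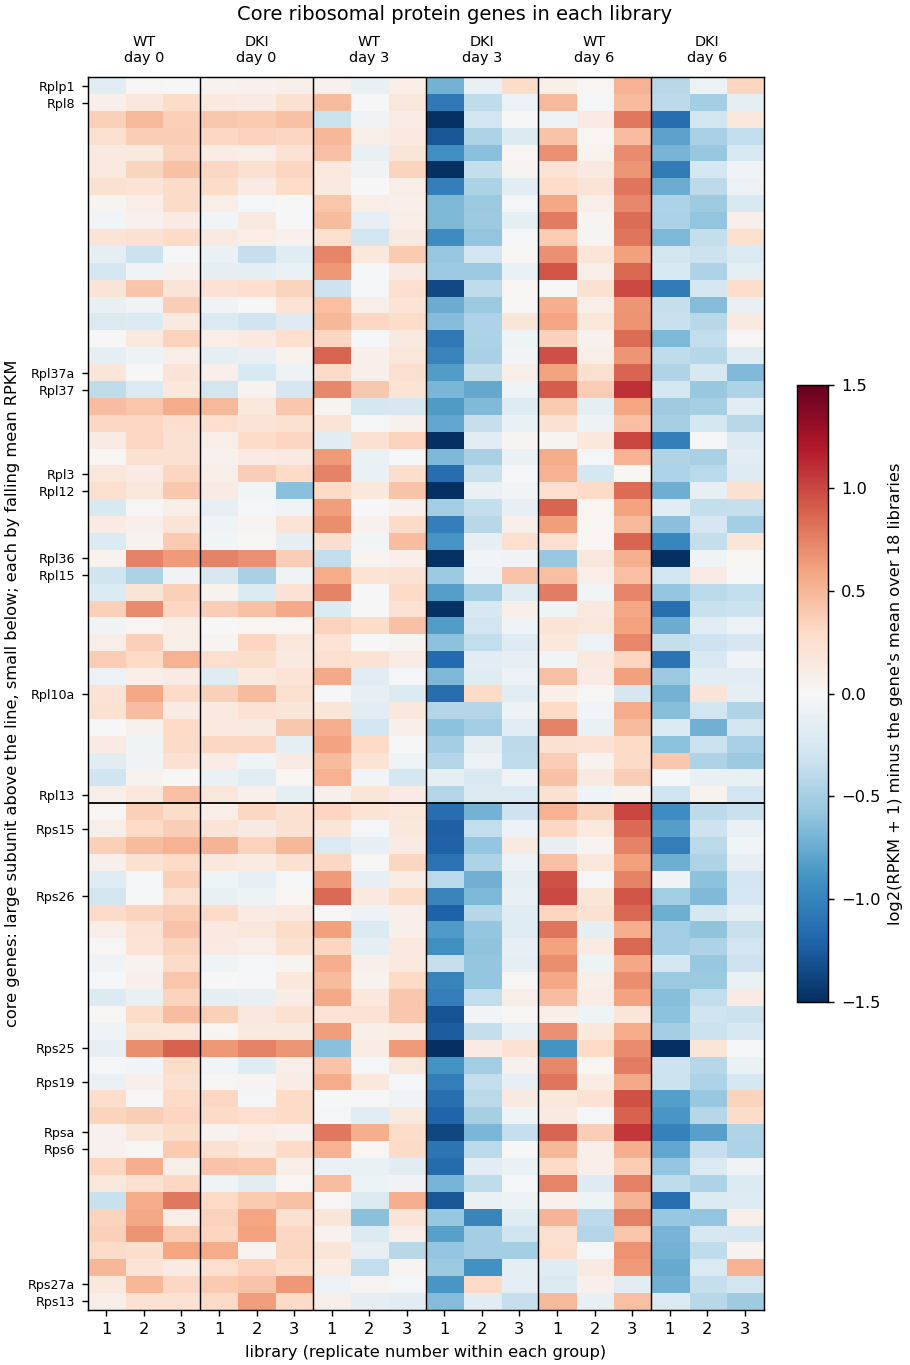
Deviation of log2(RPKM + 1) from each gene's mean over 18 libraries for the 73 core genes (rows, large subunit above the line and small subunit below, ordered by mean RPKM, some of them named) in each library (columns). The colour scale ends at −1.5 and 1.5. DKI replicate 1 of day 3 is low in every row, and the WT libraries 1 and 3 of day 6 are high in most rows.

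The 2 genes that departed most from this common movement were low in replicate 1 of both genotypes on days 3 and 6. *Rps25*, a small-subunit protein used by viral internal ribosome entry sites, had the largest SD after the library median was taken off (0.73). On day 3 it was at 45.9, 77.0 and 111 RPKM in WT and 15.2, 78.1 and 83.0 RPKM in DKI, and on day 6 at 37.9, 88.2 and 118 RPKM in WT and 16.2, 81.1 and 69.7 RPKM in DKI. Replicate 1 was the lowest in all 4 groups, and these are the libraries whose names carry the earlier year. On day 0, where no library name carries it, replicate 1 was the lowest as well, with 65.5, 116.6 and 133 RPKM in WT and 112.3, 120.3 and 113.9 RPKM in DKI. The large-subunit gene *Rpl36* came next (SD 0.49) and did the same, with 8.78, 3.499, 7.51 and 3.43 RPKM in the 4 replicate 1 libraries and 11.02 to 17.3 RPKM in the other 8. On day 0 *Rpl36* was at 12.1, 20.1 and 18.6 RPKM in WT, with replicate 1 the lowest, and at 20.2, 19.3 and 15.2 RPKM in DKI, with replicate 1 the highest. *Rpl10a*, *Rpl15* and *Rps27a* followed with SDs of 0.38, 0.37 and 0.36. *Rpl15* stood above the common level in DKI MDCs (by 0.40 on day 3 and 0.32 on day 6) and below it in monocytes of both genotypes.

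The paralogs are given here with their core partners. *Rpl3*, the partner of *Rpl3l*, was at 56.8, 31.3 and 40.7 RPKM in WT and 14.7, 26.6 and 33.2 RPKM in DKI on day 3, with overlap. The *Rpl3l* transcript had no 50-base stretch in common with another gene, and *Rpl3l* lies at chr17:24727826-24736143 (mm10). *Rpl22* was at 126, 98.6 and 111 RPKM in WT and 47.3, 72.1 and 96.3 RPKM in DKI on day 3, and *Rpl22l1* was at 69.5, 79.4 and 78.4 RPKM and 16.5, 65.1 and 62.5 RPKM (−0.87 ± 0.51). Both pairs of groups did not overlap, and neither gene was called. *Rps27l* had −0.76 ± 0.31 on day 3 and −0.58 ± 0.20 on day 6, and its highest DKI library (143 RPKM on day 3, 132 RPKM on day 6) was below the lowest WT library (152 and 144 RPKM). *Rpl36al* gave 54.6, 42.2 and 58.6 RPKM against 26.3, 44.3 and 47.3 RPKM on day 3. *Rpl7l1*, a paralog of *Rpl7*, did not separate by genotype (39.4, 40.4 and 37.5 RPKM against 28.8, 41.5 and 37.5 RPKM), and neither did *Rps19bp1*, a regulator of SIRT1 (18.1, 23.1 and 17.9 RPKM against 14.8, 19.1 and 17.7 RPKM), nor *Rps4l* (8.65, 6.64 and 10.51 RPKM against 8.67, 5.18 and 10.1 RPKM).

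The median fold changes were below 0 in all classes of uniqueness, and somewhat further below where more of the transcript was unique. On day 3 the median log2 fold change was −0.55 in core genes with under 25% unique stretches, −0.62 from 25 to 75% and −0.69 above. On day 6 it was −0.63, −0.79 and −0.81. These classes also differ in level (medians of 6.60, 85.9 and 302 RPKM), and log2(RPKM + 1) understates changes of low genes. The part of each was not tested. The pseudogenes with *-ps* in the symbol had medians of −0.72 (10 of 10 fitted below 0) and −0.78 (13 of 13, of which 1 was called lower), where 61.4% and 66.5% of all genes were below 0 and 4.82% were called lower on day 6. Of these pseudogenes 2 on day 3 and 4 on day 6 were fitted only through WT, in which they are high, which favours a value below 0. *Fau* was at 6.96, 6.65 and 8.85 RPKM in WT and 4.43, 6.02 and 6.62 RPKM in DKI on day 3 (−0.35), and at 9.15, 9.49 and 13.5 RPKM against 4.16, 7.26 and 9.57 RPKM on day 6 (−0.59), with no call on either day. *Rack1*, a scaffold on the small subunit, was at 617, 396 and 489 RPKM in WT and 208, 295 and 416 RPKM in DKI on day 3 (−0.74), with overlap, and at 620, 393 and 568 RPKM against 283, 290 and 372 RPKM on day 6 (−0.72), without overlap and with no call.

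Other translation genes, such as elongation factors and poly(A)-binding protein, are known for the same kind of tract and were taken as a list. Of 21 such genes all 21 were below 0 on both days, with medians of −0.62 and −0.65, and 1 was called lower on day 3 and 0 on day 6. Over all genes fitted, 61.4% and 66.5% were below 0 and 4.21% and 4.82% were called lower on these days. The gene called was *Eif4a2*, an RNA helicase of the cap-binding complex, at 29.6, 37.5 and 27.5 RPKM in WT and 14.5, 17.9 and 19.2 RPKM in DKI (−0.83, adjusted p = 0.0435), and it was called in 0 of 6 fits with 1 library left out. *Eef2*, the translocase, was at 1351, 840 and 1088 RPKM against 426, 540 and 821 RPKM (−0.90, adjusted p = 0.152). The 75 mitochondrial ribosomal protein genes fitted had medians of −0.26 and −0.21, with 66 and 62 below 0 and none called on either day. Their share of the summed RPKM was 0.468% to 0.498% in WT and 0.323% to 0.435% in DKI on day 3.

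Genes that build the ribosome or control these transcripts were nearer to the median of all genes. The 57 ribosome biogenesis genes fitted had medians of −0.31 on day 3 and −0.18 on day 6, with 53 and 46 of them below 0. On day 3 *Sdad1* was called lower and *Tcof1*, an activator of ribosomal RNA transcription, was called higher, at 12.5, 10.6 and 12.7 RPKM in WT and 22.4, 20.1 and 19.3 RPKM in DKI (0.74, adjusted p = 0.0290). On day 6 *Polr1c*, a subunit of RNA polymerases I and III, and *Imp3* were called lower. With 1 library left out, each of these 4 genes was called in 1 of 6 fits. Of all genes, 3.21% were called higher on day 3. Among 15 regulators, none was called on day 3 and 2 were called lower on day 6, *Mtor* and *Rptor*, which form mTOR complex 1, against 4.21% and 4.82% of all genes called lower. *Mtor* was at 17.7, 14.7 and 23.7 RPKM in WT and 9.63, 9.84 and 9.84 RPKM in DKI on day 6 (−0.84, adjusted p = 0.0479), and *Rptor* at 21.5, 14.9 and 20.5 RPKM against 9.40, 8.85 and 8.33 RPKM (−1.002, adjusted p = 0.0281). Neither pair of groups overlapped, and with 1 library left out *Mtor* was called in 1 and *Rptor* in 2 of 6 fits. *Larp1* (0.06 and 0.03) and *Myc* (−0.56 and −0.03) did not pass the test on day 3 or day 6.

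Since the members moved together, the sequences around their transcription starts were examined, as RefSeq gives them for GRCm38.p6, in 300 bases that reach to 50 past each annotated start. Of the 73 core genes 53 had such a sequence. A tract, meaning a C followed by at least 4 bases that are each C or T, was read from the annotated start or from 1 base before it in 16 of them (30.2%), whether or not the run of C and T reaches further upstream, against 5.2% of 27025 genes and 5.7% of the 7703 other genes above 2 RPKM. Within 30 bases of the start it was found in 86.8% of core genes and 62.7% of all genes, so this wider window separates little. The same strict tract was found in 2.9% of mitochondrial ribosomal protein genes and in 33.3% of the 15 other translation genes that had a sequence. These counts rest on annotated starts, which can be some bases off. The core genes of highest RPKM with a tract at the start are printed here with *Rps6*, in 30 bases from 15 before to 15 after the annotated start (for *Rpl35a* the second of its annotated starts), with every tract in capitals.
Rplp2 (chr7:141447636-141447665, + strand): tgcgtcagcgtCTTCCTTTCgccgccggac
Rps21 (chr2:180257364-180257393, + strand): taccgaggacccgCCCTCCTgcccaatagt
Rpl35a (chr16:33056467-33056496, + strand): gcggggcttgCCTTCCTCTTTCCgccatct
Rps24 (chr14:24490663-24490692, + strand): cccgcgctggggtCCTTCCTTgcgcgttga
Rpl14 (chr9:120571502-120571531, + strand): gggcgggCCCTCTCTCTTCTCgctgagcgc
Rps18 (chr17:33955651-33955680, − strand): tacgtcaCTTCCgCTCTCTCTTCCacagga
Rps6 (chr4:86857353-86857382, − strand): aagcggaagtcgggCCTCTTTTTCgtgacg

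The first 6 were chosen for the tract at the start, which in them begins 2 or more bases before it. *Rps6*, with a tract that begins 1 base before the start, was printed because it was called lower in DKI MDCs. Such a tract is in 16 of the 53 core genes. As *Rps6* was chosen by its call, nothing is read from that call about genes with a tract. The first annotated starts of *Rpl3l* and *Rpsa*, the members called on both days, are printed for themselves and stand for no group, with a tract or the letters CCGGAA (on either strand) in capitals.
Rpl3l (chr17:24727811-24727840, + strand): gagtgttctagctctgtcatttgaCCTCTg
Rpsa (chr9:120127751-120127780, + strand): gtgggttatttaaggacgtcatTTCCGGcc

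*Rpl3l* has a short tract some bases past the start and *Rpsa* has none in this window. CCGGAA, the core of sites of ETS factors, was found on either strand of the whole 300 bases in 56.6% of core genes, 34.3% of other genes above 2 RPKM and 16.7% of all genes, and in 58.0% of mitochondrial ribosomal protein genes. AAGATGG, the core of YY1 sites, was in 17.0%, 8.9% and 7.3%, and in 18.8% of mitochondrial ribosomal protein genes. In the same order as before, TATAAA was in 7.5%, 8.2% and 15.7%. The palindrome TTCNNNGAA, which STAT factors can bind, was in 5.7% of core genes, 8.4% of other genes above 2 RPKM and 9.6% of all genes, and it was in neither *Rpl3l* nor *Rpsa*. CACGTG, the E-box of MYC, was in 11.3%, 12.4% and 8.1%. A match here is a run of letters and no measured binding.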

How the data were processed

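Single-end reads were aligned by the authors to mm10 with Subread and counted on RefSeq genes with featureCounts. Versions, strandedness and the treatment of multi-mapping reads are not given in the sources used here. The files deposited by the authors hold 1 column of RPKM per library, scaled by gene length and mapped reads, without read totals, and all 18 columns were used. Depth was estimated by taking a few low values of receptor genes as whole reads and is rough.

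In R 4.3.3, limma 3.58.1 (lmFit, eBayes with trend) was fitted to log2(RPKM + 1) of all genes with a mean above 2 RPKM in at least 1 group compared, using only the libraries of each comparison (12 for the interactions). A call took both the limits 0.05 (Benjamini-Hochberg adjusted p) and 1.5 (fold), which are those of the study. With 3 libraries against 3 an exact permutation test cannot go below p = 0.1, so none was used. P-values measure the spread between these libraries. The labels tie no number to an animal, and the methods speak of independent experiments. Deviations from the group mean correlated between same-numbered libraries of the genotypes (r over genes from 0.163 to 0.865 on days 0, 3 and 6) and between days 3 and 6 (0.125 to 0.743), so these numbers were taken to pair libraries, but not those of days 0 and 3 (−0.208 to 0.18).

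The members, gene lists and comparisons were chosen with earlier results of these data known, so no list is independent evidence. Named are the 5 highest and 5 lowest members by mean RPKM, up to 3 rises and 3 falls called per comparison, a fixed set of well-known members and paralogs, and the 5 core genes with the largest SD once the library median was removed. Further members were named after their values were seen: those of day 0, those nearest to 0 or to the threshold, and the other members called. Some members are not reported here. Transcripts for the 50-base stretches, searched on both strands, came from GENCODE M21 and starts from RefSeq (GRCm38.p6), in which 20082 gene identifiers were found and 216 were not. Alternatives were another pseudocount, no filter, median centring, quantile normalization, the replicate block, all 18 libraries, no fold limit and each library left out. The fit was tested on simulated data.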

Additional observations from a re-analysis of the deposited data

Results flagged for a closer look

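The responses of *Rpl3l* and *Rpsa* to GM-CSF differed between the genotypes by the interaction test of limma. For *Rpl3l* the value was −1.83 on the log2 scale for day 3 against day 0 and −1.87 for day 6 against day 0, and for *Rpsa* it was −1.42 for day 6 against day 0. *Rpl3l* was higher in all 6 WT libraries of days 3 and 6 than in any of the 6 DKI libraries, and in monocytes of both genotypes it was at most 0.298 RPKM. *Rpsa* was higher in 3 of 3 WT libraries than in every DKI library on each of the days. *Rpl3l* was fitted only through the WT groups of days 3 and 6, in which its means were 4.82 and 5.18 RPKM against a limit of 2 RPKM. With 1 of 12 libraries left out in turn, *Rpl3l* was called in 7 fits for day 3 and 4 fits for day 6, and *Rpsa* in 5 fits for day 6, so these results rested on single libraries. As each group has 3 libraries, no group was tested for an outlying library.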

How the results depend on the processing

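The median fold changes held better than the counts of genes called. Leaving out 1 library at a time, the members' median log2 fold change (DKI against WT) ranged from −0.09 to 0.02 on day 0, −0.83 to −0.41 on day 3 and −0.89 to −0.58 on day 6, from −0.12 to 0.10 (WT) and −0.83 to −0.41 (DKI) for day 3 against day 0, from 0.06 to 0.36 (WT) and −0.14 to 0.27 (DKI) for day 6 against day 3, and from −0.79 to −0.37 and −0.84 to −0.54 in the interactions for days 3 and 6. The DKI to WT ratio of the share ranged from 0.953 to 1.001 on day 0, 0.566 to 0.784 on day 3 and 0.525 to 0.662 on day 6. The counts called ranged from 0 to 2 (day 3), 0 to 18 (day 6), 3 to 5 (WT, day 3 against day 0), 1 to 21 (DKI, day 3 against day 0), 0 to 3 and 0 to 27 (interactions). With no filter the counts were 1 on day 3, 0 on day 6 and 6 in DKI for day 3 against day 0. Of all genes, 1.3%, 0.797% and 11.3% were called lower in these fits. In the fit of all 18 libraries these 3 counts were 22, 43 and 38 (8.16%, 10.7% and 25% of all genes). On day 6 median centring gave 2 and quantile normalization 3 (2.9% and 3.15% of all genes called lower). For the interactions a pseudocount of 0.1 gave 0 and 1 (1.27% of all genes called lower in each). Median centring gave 2 on day 3 (1.84%), and quantile normalization gave 1 on day 6 (1.57%). Without replicate 1 of both genotypes, an alternative chosen after seeing the data, as were the medians and shares with libraries left out, the counts were 1 on day 3 and 0 on day 6 (2.12% and 0.122% of all genes called lower), and the median of day 3 was −0.31. On day 3 the sign turned without DKI replicate 1 in *Rplp1* (range with 1 library left out −0.43 to 0.071), *Rps27a* (−0.48 to 0.11), *Rpl10a* (−0.54 to 0.18), *Rps25* (−1.05 to 0.13), *Rpl36* (−0.69 to 0.031) and *Rpl7l1* (−0.24 to 0.012), and without replicate 1 of both genotypes *Rplp1*, *Rps27a*, *Rpl10a* and *Rpl7l1* were at 0.096, 0.079, 0.23 and 0.017. *Rps4l* (−0.29 to 0.13) turned without DKI replicate 2 and without WT replicate 3 (0.023). The causes were not tested. Of 876 values of single genes under the alternatives, 719 kept direction and side of the threshold, 121 no longer passed it, 24 newly passed it and 12 turned sign. Since 22 of these 67 gene results were called, the 121 are set against the 289 values of those 22. Where a fit left out a library, the lone pair was assumed to vary like the others.

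With the replicate number as a block, 1 member was called on day 3 (2.96% of all genes called lower). In DKI for day 3 against day 0, where the numbers were not taken to pair the libraries, 4 were called lower (19.7%). The count of no other comparison moved by over 1.5 times in sum. In WT for day 3 against day 0 the numbers were likewise not taken to pair. The block gave 2 higher and 2 lower there in place of 5 and 1, against 17.9% and 20.2% of all genes. *Rpl15*, *Rpl37* and *Rpl41* were lost and *Rpl32l* was called lower. RPKM values carry no read totals, so the counting error of low genes such as *Rpl3l* could not be given.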
